A study of Mus musculus with 8 samples.

Results

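The breakdown of leucine, isoleucine and valine was followed through 10 genes in the soleus, a postural calf muscle rich in slow and oxidative fibres. The genes were Bcat2, Bckdha, Bckdhb, Dbt, Bckdk, Ppm1k, Ivd, Mccc1, Mccc2 and Hibadh, chosen by symbol because their products catalyse or control steps of this pathway. Earlier results of these data were known when they were chosen. They are 10 of the 22880 gene identifiers in each count table and 10 of the 14001 genes that passed a filter on low counts. Muscles came from 4 control mice (Dnm2 +/+) and 4 Dnm2 +/K562E mice, all male, 2 months old, untreated and on the C57BL/6 background. Dynamin 2, the product of Dnm2, is a GTPase that pinches membrane vesicles off, and the mutant mice carry the K562E codon change on 1 allele, knocked in through embryonic stem cells. The allele is not limited to muscle, a loxP site remains in an intron beside the changed exon, and controls were littermates or age-matched wild-type mice. The comparison asks how transcript levels in the muscle differ with the mutation.

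All 10 genes were lower in Dnm2 +/K562E soleus than in control soleus at an adjusted p under 0.05 (edgeR), against 21.7% of all tested genes. Levels of the 10 genes in the mutant mice were between 38.6% (Ivd) and 66.5% (Bckdk) of the control mean. No mutant mouse reached the level of any control mouse in any of them, as in 20.5% of all tested genes. Added up, they came to between 755.6 and 864.2 normalized CPM in the controls and between 391.5 and 442.9 in the mutant mice, where normalized CPM are read counts scaled to a common effective library size. The 24 other listed genes of the pathway were less uniform. Of these, 16 were lower, 2 were higher and 6 were not called, where 22.2% of all tested genes were higher. The transporter genes Slc3a2 and Slc7a8, the mitochondrial carrier gene Slc25a44 and the valine enzyme gene Acad8 did not pass the test, and the transporter subunit gene Slc7a5 was higher in the mutant mice.

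In skeletal muscle the mitochondrial transaminase BCAT2 moves the amino group of a branched-chain amino acid to 2-oxoglutarate, leaving a branched-chain 2-oxoacid. The branched-chain 2-oxoacid dehydrogenase complex (BCKDH) then removes a carboxyl group and joins the rest to coenzyme A, which commits the carbon skeleton to breakdown. BCKDH is switched off when its kinase BCKDK phosphorylates the E1 alpha subunit and switched on again by the phosphatase PPM1K. Leucine carbon ends as acetyl-CoA and acetoacetate, valine carbon as propionyl-CoA, and isoleucine carbon as both acetyl-CoA and propionyl-CoA. All of these reactions take place in mitochondria.

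The 8 libraries held between 33407430 and 48832814 counts, the highest in control 3, and counts of the 10 genes ran from 210 (Ppm1k) to 8472 (Ivd) per mouse. The TMM scaling factors of edgeR were between 0.9145 and 0.9594 in controls and between 1.037 and 1.103 in mutant mice, so that scaling moved the genotypes relative to each other. With them the median log2 fold change of all tested genes was 0.01, and with library size alone it was 0.22. The slow-fibre myosin gene Myh7 (5808 to 6384 normalized CPM in controls) and the fast-fibre myosin gene Myh2 (9179 to 10596 normalized CPM in controls) were both abundant, so the labelled muscle showed its fibre markers. Dnm2 itself was at 66.3 ± 4.74 normalized CPM (SD, n = 4) in controls and at 73.4 ± 2.43 (SD, n = 4) in mutant mice, with a log2 fold change of 0.15 and an adjusted p of 0.0909 by edgeR. Every mutant mouse (70.3 to 76.1) was above every control (59.2 to 68.8) in Dnm2, as in 20.6% of all tested genes. A gene count cannot check a point mutation, and allele-specific reads were not used here.

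The 10 genes lie on 6 chromosomes of GRCm38, with Bcat2, Bckdha and Bckdk on chromosome 7. Promoter sequences were taken from RefSeq (GRCm38.p6), as the 250 bases before each annotated start, and matched 9 of the 10 genes, all but Dbt, with 11 windows. The gene positions given below come from another annotation, GENCODE, whose starts can differ from those of RefSeq. Some windows, among them those of Ivd, Hibadh and Bckdha, therefore lie partly inside the gene by those positions. Short motifs were searched on both strands. The CCAAT box (CCAAT), which NF-Y binds, stood in 7 of the 11 windows and in 33.8% of 32851 mouse promoter windows of that length. The GC box (GGGCGG), which SP1-family factors bind, stood in 4 of the 11 windows and in 32.7% of all windows. The core of the NRF1 site (CGCNTGCG) stood in 1 of the 11 windows, that of Hibadh, and in 6.76% of all windows. The ERR motif (TNAAGGTCA), bound by oestrogen-related receptors, stood in none of the 11 windows and in 1.14% of all windows. Printed here are the windows of Ivd, which had the lowest level in mutant mice relative to controls among the 10 genes, of Bckdk, which had the highest, and of Hibadh, which held 3 of the motifs. Capitals mark every match, and ATTGG and CCGCCC are the CCAAT box and the GC box read on the other strand.
Ivd, chr2:118861744-118861993, plus strand: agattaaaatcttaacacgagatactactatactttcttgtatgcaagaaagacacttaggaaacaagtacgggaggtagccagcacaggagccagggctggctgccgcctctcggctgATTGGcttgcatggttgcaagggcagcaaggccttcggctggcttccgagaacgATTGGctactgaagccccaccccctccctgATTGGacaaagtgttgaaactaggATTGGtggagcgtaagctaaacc
Bckdk, chr7:127903823-127904072, plus strand: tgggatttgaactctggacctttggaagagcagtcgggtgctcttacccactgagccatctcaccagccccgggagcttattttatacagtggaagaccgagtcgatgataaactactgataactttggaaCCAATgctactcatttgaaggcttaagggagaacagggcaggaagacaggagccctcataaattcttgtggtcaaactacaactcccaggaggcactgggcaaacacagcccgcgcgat
Hibadh, chr6:52640301-52640550, minus strand: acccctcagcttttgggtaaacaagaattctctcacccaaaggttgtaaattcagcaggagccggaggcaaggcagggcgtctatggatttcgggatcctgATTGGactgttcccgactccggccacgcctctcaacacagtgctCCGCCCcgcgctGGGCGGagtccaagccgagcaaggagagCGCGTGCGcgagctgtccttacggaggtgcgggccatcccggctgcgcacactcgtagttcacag
The Ivd window held 4 CCAAT boxes, all on the strand opposite to the gene, and the Bckdk window held 1. A match to letters is not evidence that a factor binds there.

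**Figure D1:**
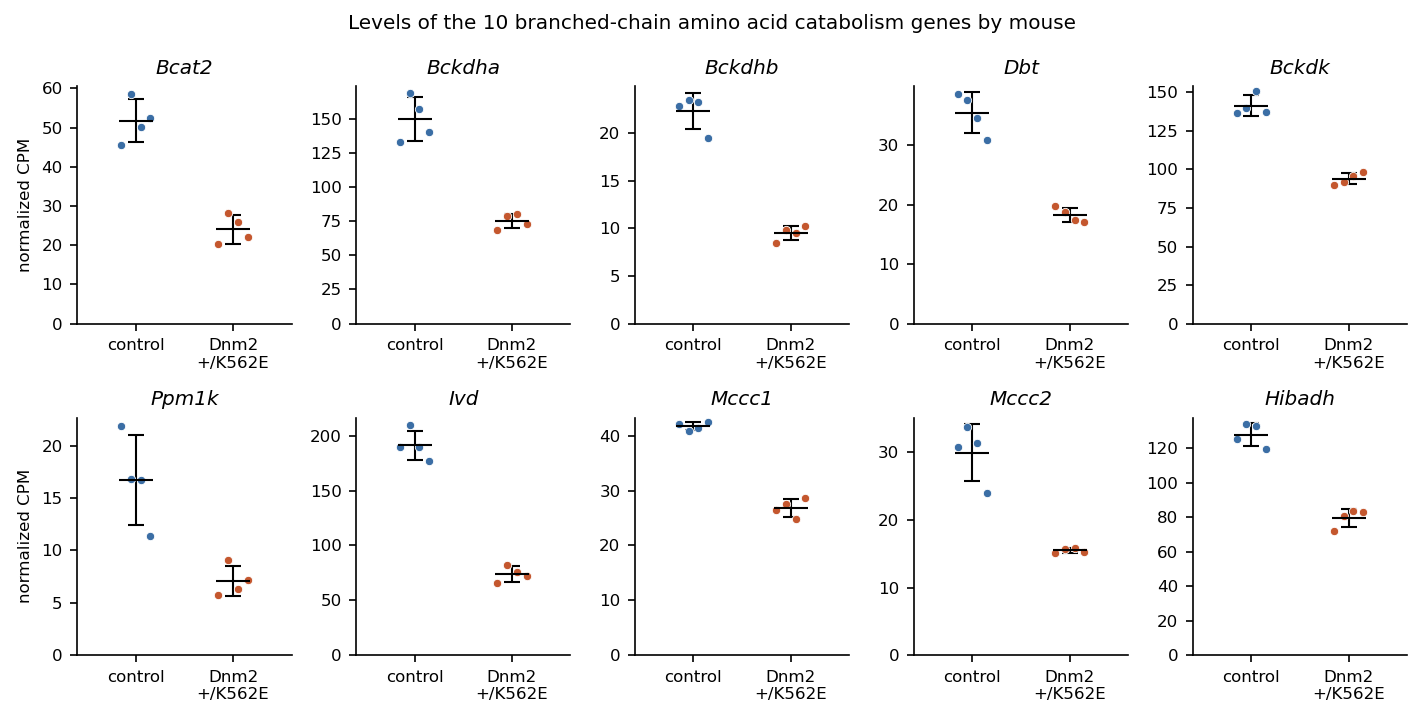
Normalized CPM (y axis, from 0, with its own scale in each panel) of the 10 genes in 4 control mice (blue) and 4 Dnm2 +/K562E mice (orange), with points for mice and bars for mean and SD. In each panel every mutant mouse lies below every control mouse, as in 20.5% of all tested genes. Ivd has the lowest mutant level relative to control (38.6%) and Bckdk the highest (66.5%).

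Bcat2 (chromosome 7, 45570153 to 45589711, plus strand) encodes the mitochondrial transaminase that catalyses the first, reversible step. Its level was 45.7, 58.7, 50.2 and 52.5 normalized CPM in controls 1 to 4. In mutant mice 1 to 4 it was 20.2, 28.3, 26.0 and 22.0 normalized CPM. The highest mutant mouse, mutant 2, was thus below the lowest control, control 1. Bcat2 fell by 1.10 on the log2 scale (standard error 0.11, adjusted p = 2.68e-05). Adjusted p-values of fold changes are from the quasi-likelihood test of edgeR, corrected over all tested genes by the Benjamini-Hochberg method. Of the 31-base stretches in its transcripts, 15.2% also occur in transcripts of other genes.

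The E1 and E2 subunits of BCKDH came next in the pathway, and each of their genes was at 42.6% to 51.6% of its control mean. Bckdha (chromosome 7, 25629946 to 25658981, minus strand) encodes E1 alpha, the subunit that carries the regulatory phosphorylation. It was at 133.5, 169.2, 157.3 and 140.3 normalized CPM in controls 1 to 4 and at 68.7, 78.8, 80.3 and 73.2 in mutant mice 1 to 4. All mutant mice were below control 1, the lowest control, and the log2 difference from controls was -0.996 (standard error 0.08, adjusted p = 7.50e-06). The exons of Bckdha overlap those of B3gnt8 on the opposite strand over 1171 bases, and the strand setting of the counting is not given in the sources used here. Counts of B3gnt8 were low, between 0.983% and 4.82% of those of Bckdha in any mouse.

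Bckdhb (chromosome 9, 83925145 to 84124240, plus strand) encodes E1 beta, which forms a tetramer with E1 alpha. It was at 22.8, 23.5, 23.3 and 19.5 normalized CPM in controls 1 to 4 and at 8.45, 9.79, 9.47 and 10.2 in mutant mice 1 to 4. The mutant mice lay close together and well below control 4, the lowest control. Bckdhb fell by 1.23 on the log2 scale (standard error 0.09, adjusted p = 3.17e-06). Dbt (chromosome 3, 116513070 to 116549981, plus strand) encodes E2, the lipoyl-bearing core to which the other subunits attach. It was at 38.6, 37.6, 34.6 and 30.97 normalized CPM in controls 1 to 4 and at 19.7, 18.8, 17.5 and 17.1 in mutant mice 1 to 4. The genotypes did not overlap, and Dbt fell by 0.95 on the log2 scale (standard error 0.08, adjusted p = 1.03e-05).

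The kinase and phosphatase that set BCKDH activity were both lower in mutant mice. Bckdk (chromosome 7, 127904082 to 127910221, plus strand) was at 137.0, 140.2, 151.2 and 137.6 normalized CPM in controls 1 to 4 and at 90.1, 92.1, 95.6 and 98.5 in mutant mice 1 to 4. It had the fold change nearest 0 of the 10 genes, -0.59 on the log2 scale (standard error 0.06, adjusted p = 1.94e-05), with little spread within either genotype. Ppm1k (chromosome 6, 57506502 to 57535468, minus strand) was the most variable of the 10 among controls relative to its mean. It was at 21.9, 16.9, 16.7 and 11.4 normalized CPM in controls 1 to 4 and at 5.70, 9.06, 6.30 and 7.19 in mutant mice 1 to 4. Control 4 and mutant 2 came nearest to each other without overlap. Ppm1k fell by 1.24 on the log2 scale (standard error 0.20, adjusted p = 4.71e-04).

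In the leucine branch, Ivd (chromosome 2, 118861954 to 118882909, plus strand) encodes isovaleryl-CoA dehydrogenase, which oxidizes the product that BCKDH makes from leucine. It had the largest fall of the 10 genes. Its level was 189.3, 209.4, 189.7 and 177.2 normalized CPM in controls 1 to 4 and 65.3, 82.2, 76.0 and 72.4 in mutant mice 1 to 4. Every mutant mouse was far below control 4, the lowest control. Ivd fell by 1.37 on the log2 scale (standard error 0.08, adjusted p = 9.32e-07). Mccc1 and Mccc2 encode the biotin-carrying alpha subunit and the beta subunit of methylcrotonyl-CoA carboxylase, which acts on the product of that step. Mccc1 (chromosome 3, 35959312 to 36000678, minus strand) was at 42.1, 40.8, 41.4 and 42.5 normalized CPM in controls 1 to 4 and at 26.4, 27.5, 24.9 and 28.6 in mutant mice 1 to 4. Mccc2 (chromosome 13, 99948530 to 100015639, minus strand) was at 30.8, 33.8, 31.4 and 23.9 in controls 1 to 4 and at 15.2, 15.7, 15.9 and 15.3 in mutant mice 1 to 4. Both pairs of groups stood apart, with Mccc1 nearly constant among controls and Mccc2 nearly constant among mutant mice. Mccc1 fell by 0.64 (standard error 0.06, adjusted p = 2.01e-05) and Mccc2 by 0.95 (standard error 0.10, adjusted p = 3.08e-05) on the log2 scale.

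Hibadh (chromosome 6, 52546228 to 52640389, minus strand) represents the valine branch among the 10 genes. It encodes 3-hydroxyisobutyrate dehydrogenase, which acts on a valine intermediate that has been freed from coenzyme A. Its level was 125.1, 134.0, 133.1 and 119.9 normalized CPM in controls 1 to 4 and 71.7, 80.6, 83.4 and 82.8 in mutant mice 1 to 4. The genotypes did not overlap, and Hibadh fell by 0.69 on the log2 scale (standard error 0.07, adjusted p = 1.91e-05).

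At an adjusted p under 0.05, 10 of the 10 genes were lower, against 21.7% of all tested genes. In 10 of 10 the genotypes did not overlap, against 20.5% of all tested genes that were lower without overlap. With the additional threshold of a log2 fold change of 0.58 in size, all 10 remained called, against 7.85% of all tested genes. Their median log2 fold change was -0.97. Scaling by library size alone changed the background from 3036 lower and 3103 higher genes to 1504 lower and 5608 higher genes. Under that scaling all 10 genes were still lower with an adjusted p under 0.05, and 7 of them kept a fold change past 0.58 in size on that scale, the exceptions being Bckdk (-0.38), Mccc1 (-0.43) and Hibadh (-0.47). Control 4 was the lowest control in Bckdhb, Dbt, Ppm1k, Ivd, Mccc2 and Hibadh, and all 10 genes remained past both thresholds when it was left out. Bckdk was close to the threshold of 0.58, and without control 3, mutant 1 or mutant 2 its log2 fold change was -0.56, -0.57 or -0.579, so that 9 of the 10 genes passed both thresholds there.

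The other genes of branched-chain amino acid breakdown, uptake and control form a list of 24, all of which passed the filter on low counts. Of these 24 genes, 16 fell, 2 rose and 6 were not called, with a median log2 fold change of -0.67. In 17 of them the mutant mice were lower without overlap and in 2 they were higher without overlap. Among all tested genes, 22.2% were called higher and 20.6% were higher without overlap. Past both thresholds, 13 of the 24 fell and 1 rose, where 12.9% of all tested genes rose.

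**Figure D2:**
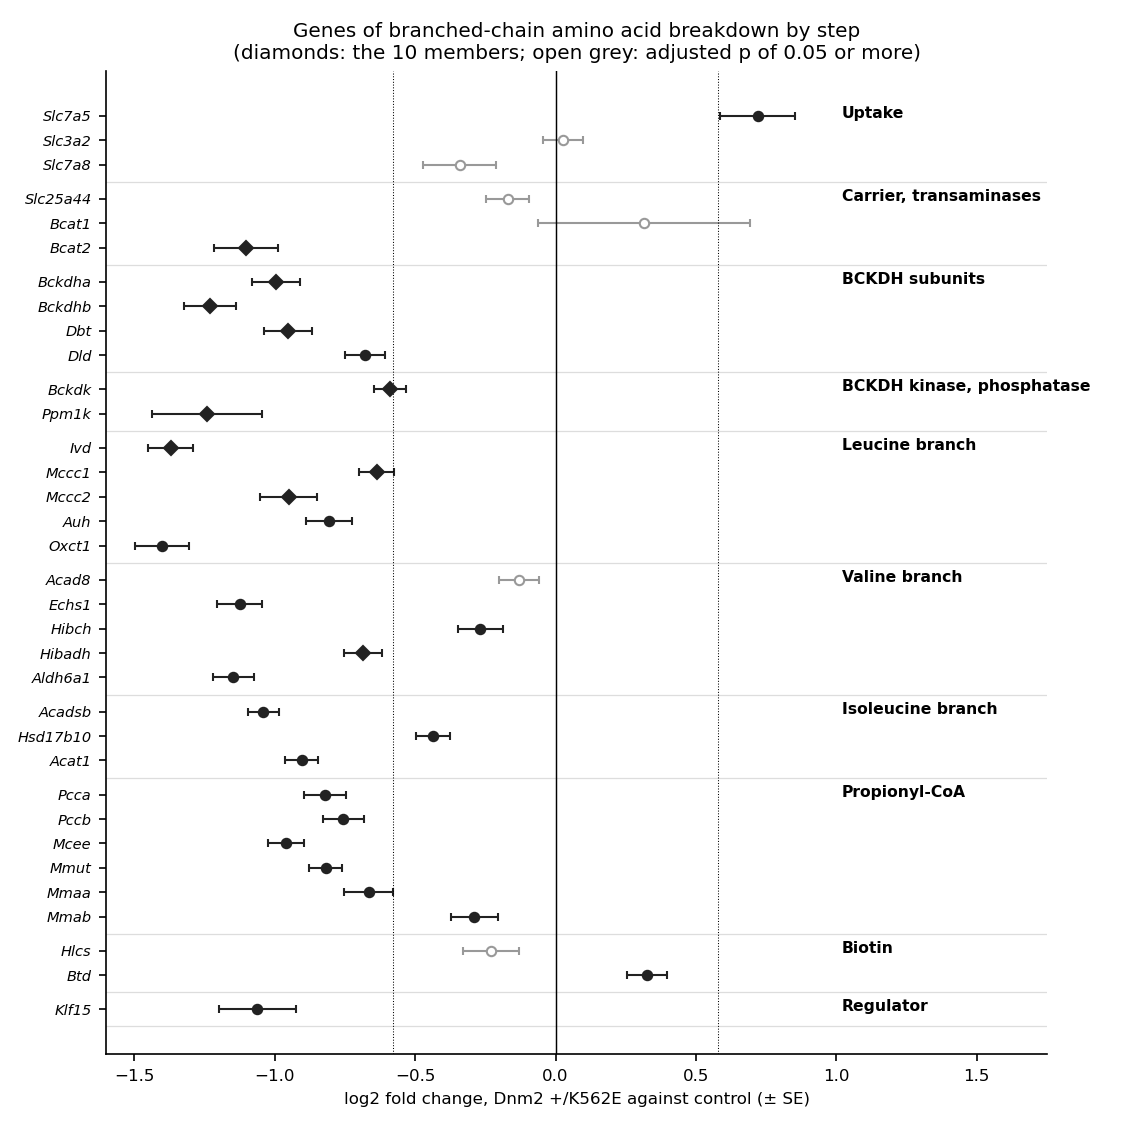
Log2 fold change of Dnm2 +/K562E against control soleus (x axis, negative is lower in mutant mice) with its standard error for the 10 genes (diamonds) and the 24 other pathway genes (circles), ordered by step; open grey symbols have an adjusted p of 0.05 or more, and dotted lines mark 0.58 in either direction. Enzymes from the transaminase to propionyl-CoA lie mostly left of 0, with Oxct1 at -1.40 and Ivd at -1.37 farthest left, while Slc7a5 lies at 0.72.

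At the entry to the pathway the picture was mixed. Slc7a5, the light chain of a large neutral amino acid transporter, rose from 5.98 ± 1.12 to 9.89 ± 0.605 normalized CPM (SD, n = 4 each), with a log2 fold change of 0.72 and an adjusted p of 0.0013 by edgeR. Its partner Slc3a2, the heavy chain, was at 36.4 to 38.7 normalized CPM in controls and at 35.2 to 41.3 in mutant mice, and its genotypes overlapped. Slc7a8, another light chain, had a log2 fold change of -0.34 with an adjusted p of 0.0533 by edgeR. This adjusted p was 0.0490 without control 1 (-0.37) and 0.0312 without control 3 (-0.41). The exact test of edgeR and DESeq2 also called Slc7a8 lower. Slc25a44, which carries branched-chain amino acids into mitochondria, was at 27.9 ± 1.94 in controls and at 24.7 ± 1.65 in mutant mice (SD, n = 4 each; adjusted p = 0.0895, edgeR). Its log2 fold change was -0.17, and 0.04 with library size alone. In Slc7a8 and Slc25a44 every mutant mouse was below every control, as in 20.5% of all tested genes. The cytosolic transaminase gene Bcat1 was low, at 1.23 ± 0.563 and 1.54 ± 0.515 normalized CPM (SD, n = 4 each), and was not called.

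Dld encodes E3, the dihydrolipoamide dehydrogenase that BCKDH shares with the pyruvate and 2-oxoglutarate dehydrogenase complexes. It fell from 393.8 ± 24.3 to 246.0 ± 19.5 normalized CPM (SD, n = 4 each), a log2 fold change of -0.68. Klf15, a transcription factor known to promote expression of branched-chain amino acid breakdown genes in muscle, fell by 1.06 on the log2 scale (standard error 0.14, adjusted p = 1.25e-04). Its level was 57.9, 70.5, 73.6 and 56.6 normalized CPM in controls 1 to 4 and 22.6, 34.4, 33.0 and 33.7 in mutant mice 1 to 4, with mutant 1 apart from the other mutant mice.

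Farther down the leucine branch, both listed genes fell. Auh (methylglutaconyl-CoA hydratase) fell by 0.81 on the log2 scale. Oxct1, which lets muscle use acetoacetate by passing coenzyme A to it, fell from 686.0 ± 49.4 to 259.5 ± 34.5 normalized CPM (SD, n = 4 each). Its log2 fold change, -1.40, was the most negative of the 34 pathway genes.

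The valine branch was split. Echs1, a hydratase that also serves fatty acid oxidation, fell by 1.12 and Aldh6a1, which ends the branch with propionyl-CoA, fell by 1.15 on the log2 scale. Between them, Hibch, the hydrolase that makes the substrate of the Hibadh enzyme, fell by 0.27 (adjusted p = 0.018), with overlap between the genotypes, and this call was lost in 5 of 17 alternative settings. Without control 2 it was -0.24 (adjusted p = 0.0523, edgeR), and without mutant 2 or mutant 3 it was -0.23 (adjusted p = 0.0547 and 0.0564, edgeR). Acad8, the isobutyryl-CoA dehydrogenase that acts first on the BCKDH product of valine, was at 30.6 ± 0.725 in controls and at 28.0 ± 2.35 in mutant mice (SD, n = 4 each; adjusted p = 0.161, edgeR). Its log2 fold change was -0.13, and 0.08 with library size alone. Without mutant 4, the mutant mouse with the highest level, it was -0.19 (adjusted p = 0.0361, edgeR). Ivd and Acad8 encode acyl-CoA dehydrogenases for the same step of different branches, and their log2 fold changes were -1.37 and -0.13. That of Acadsb, for this step of the isoleucine branch, was -1.04.

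All 3 genes of the isoleucine branch fell, with log2 fold changes of -1.04 for Acadsb, which oxidizes the BCKDH product of isoleucine, -0.44 for the dehydrogenase gene Hsd17b10 and -0.90 for the thiolase gene Acat1. Of the 6 genes that lead from propionyl-CoA to the citric acid cycle, 6 fell. They were both subunits of the biotin enzyme propionyl-CoA carboxylase (Pcca, -0.82, and Pccb, -0.76), the epimerase Mcee (-0.96), the methylmalonyl-CoA mutase Mmut (-0.82) and the cobalamin proteins Mmaa (-0.67) and Mmab (-0.29). With library size alone 5 of the 6 were called, and Mmab was at -0.08 (adjusted p = 0.395, edgeR). Neither gene that handles biotin was called lower with all mice in the fit. Btd, which recycles biotin, rose from 11.4 ± 0.333 to 14.3 ± 0.266 normalized CPM (SD, n = 4 each; adjusted p = 0.00393, edgeR), and Hlcs, which attaches biotin to the carboxylases, had a log2 fold change of -0.23 with an adjusted p of 0.0805 (-0.29 and 0.0465 without control 4).

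Because members fell by different amounts, 6 ratios of counts between them were taken within each mouse, where library size and scaling cancel. The ratio of Bckdk to Bckdha, kinase to its substrate subunit, was 1.03, 0.828, 0.961 and 0.981 in controls 1 to 4 and 1.31, 1.17, 1.19 and 1.35 in mutant mice 1 to 4. All mutant mice were above all controls, by 0.40 on the log2 scale (standard error 0.08). The exact two-sided permutation test gave p = 0.0286, the smallest p that 4 against 4 mice allow, and p = 0.171 adjusted over the 6 ratios. The ratio of Bckdk to Ppm1k, kinase to phosphatase, was 6.25, 8.31, 9.05 and 12.1 in controls 1 to 4 and 15.8, 10.2, 15.2 and 13.7 in mutant mice 1 to 4. Control 4 lay within the range of the mutant mice, and the difference of 0.64 on the log2 scale (standard error 0.24) had an exact p of 0.0571, or 0.171 adjusted.

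The remaining ratios overlapped between the genotypes. Bckdha to Bckdhb, the subunits of E1, went from 6.73 to 7.94 (exact p = 0.0857), and Mccc1 to Mccc2 from 1.40 to 1.73 (exact p = 0.114), both as geometric means over 4 mice. Dbt to Bckdha was 0.236 in controls and 0.243 in mutant mice (exact p = 0.657), and Bcat2 to Bckdha was 0.345 and 0.318 (exact p = 0.2). None of the 6 ratios passed 0.05 after adjustment. These are ratios of counts and not of molecules, since the genes differ in length.

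**Figure D3:**
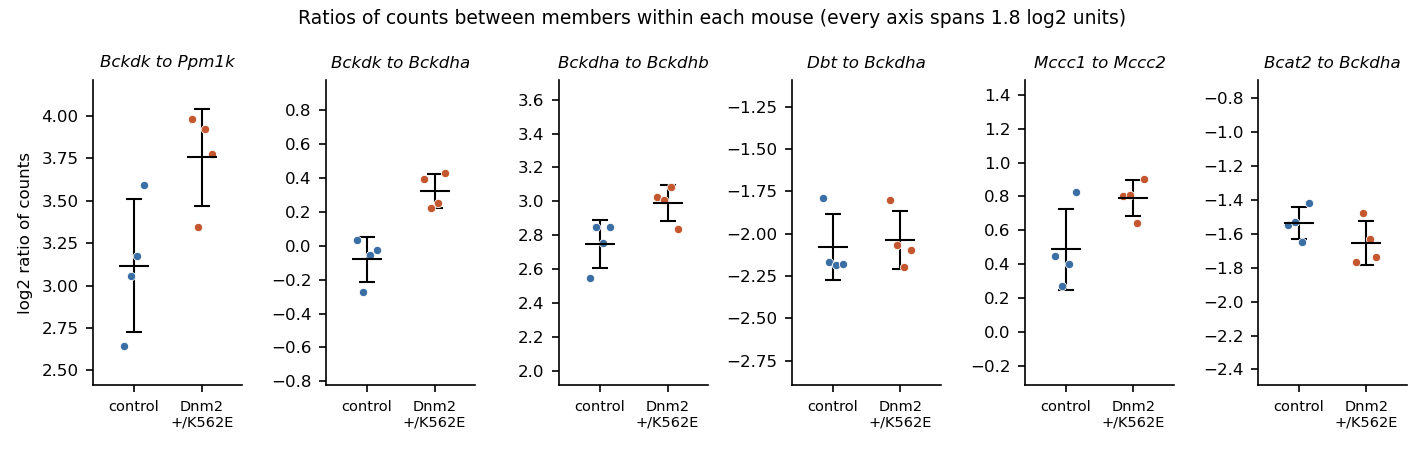
Log2 ratio of counts of gene pairs within each mouse (y axis; every panel spans the same number of log2 units) in 4 control mice (blue) and 4 Dnm2 +/K562E mice (orange), with points for mice and bars for mean and SD. The genotypes are separate for Bckdk to Bckdha, 0.40 higher in mutant mice, and overlap in the other 5 panels.

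Cs encodes citrate synthase, a common yardstick of mitochondrial content, but only its transcript was measured here, and mitochondrial content was not. The Cs transcript fell from 994.6 ± 31.4 to 555.0 ± 15.9 normalized CPM (SD, n = 4 each), a log2 fold change of -0.84. Relative to Cs in the same mouse, Ivd (by 0.53 on the log2 scale) and Bckdhb (by 0.39) were lower in every mutant mouse than in any control. Bckdk (by 0.25) and Hibadh (by 0.16) were higher in every mutant mouse than in any control relative to Cs. Each of these 4 had an exact two-sided permutation p of 0.0286 and, adjusted over the 10 genes, 0.0714, so that none passed 0.05. The other 6 overlapped, with differences from -0.39 (Ppm1k) to 0.20 (Mccc1).

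Levels of different genes can be set side by side only per length, here as normalized CPM per kb of each gene's principal transcript. The order can depend on the length chosen, since reads were counted over all annotated exons of a gene. All exons together cover 10179 bases for Hibadh and 10952 for Mccc1, while their principal transcripts have 1825 and 2455. For Bckdha both lengths are 1899. An order by the length of all exons was not computed. In controls Bckdha (79.0 ± 8.55, SD, n = 4) and Hibadh (70.1 ± 3.69) came first with overlapping ranges, followed by Ivd (52.2 ± 3.64), Bckdk (41.5 ± 1.94), Bcat2 (29.2 ± 3.06) and Mccc1 (17.0 ± 0.294). Bckdhb (15.1 ± 1.28), Mccc2 (14.1 ± 2.00) and Dbt (10.7 ± 1.04) followed, with overlap between neighbours, and Ppm1k was last at 3.01 ± 0.771. In mutant mice Hibadh (43.6 ± 2.95) stood before Bckdha (39.6 ± 2.81), again with overlapping ranges, and Bckdk (27.6 ± 1.09) before Ivd (20.2 ± 1.93) without overlap. Ppm1k stayed last, at 1.27 ± 0.264. The E1 alpha transcript was thus more abundant per length than those of E1 beta and E2 in both genotypes.

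Lists of genes with neighbouring functions were counted in the same fit. The sister complexes share their design and E3 with BCKDH. Of 11 pyruvate dehydrogenase genes, 7 fell, 1 rose and 3 were not called, with a median log2 fold change of -0.51. The 2 genes of 2-oxoglutarate dehydrogenase besides Dld, Ogdh (-0.76) and Dlst (-0.66), fell. Among the regulators of pyruvate dehydrogenase, the kinase gene Pdk2 (-0.81), the phosphatase gene Pdp2 (-1.17) and the phosphatase regulatory subunit gene Pdpr (-0.71) fell and the kinase gene Pdk3 (1.08) rose, while the kinases Pdk1 and Pdk4 and the phosphatase Pdp1 were not called.

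All 14 genes of the citric acid cycle fell (median log2 fold change -0.84), as did all 13 of fatty acid beta-oxidation (-0.68) and all 36 of respiratory complex I (-0.64). The median over the 10 genes of branched-chain amino acid breakdown, -0.97, was more negative than these medians. That of the 24 other pathway genes was -0.67 and that of all 34 pathway genes -0.78, both less negative than that of the citric acid cycle. With library size alone the median was -0.76 for the 10 genes. With that scaling the medians of the citric acid cycle, beta-oxidation and complex I were -0.63, -0.47 and -0.43, and 13 of 14, 12 of 13 and 35 of 36 of their genes were called lower. The lists were not tested against each other. Single genes of the other lists, such as Acadm (-1.10) and Etfb (-1.04), had changes beyond the -0.97 of the 10 genes. Etfa, Etfb and Etfdh, which take electrons from the enzymes of Ivd, Acad8 and Acadsb as well as from fatty acid oxidation, had log2 fold changes of -0.58, -1.04 and -0.68.

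**Figure D4:**
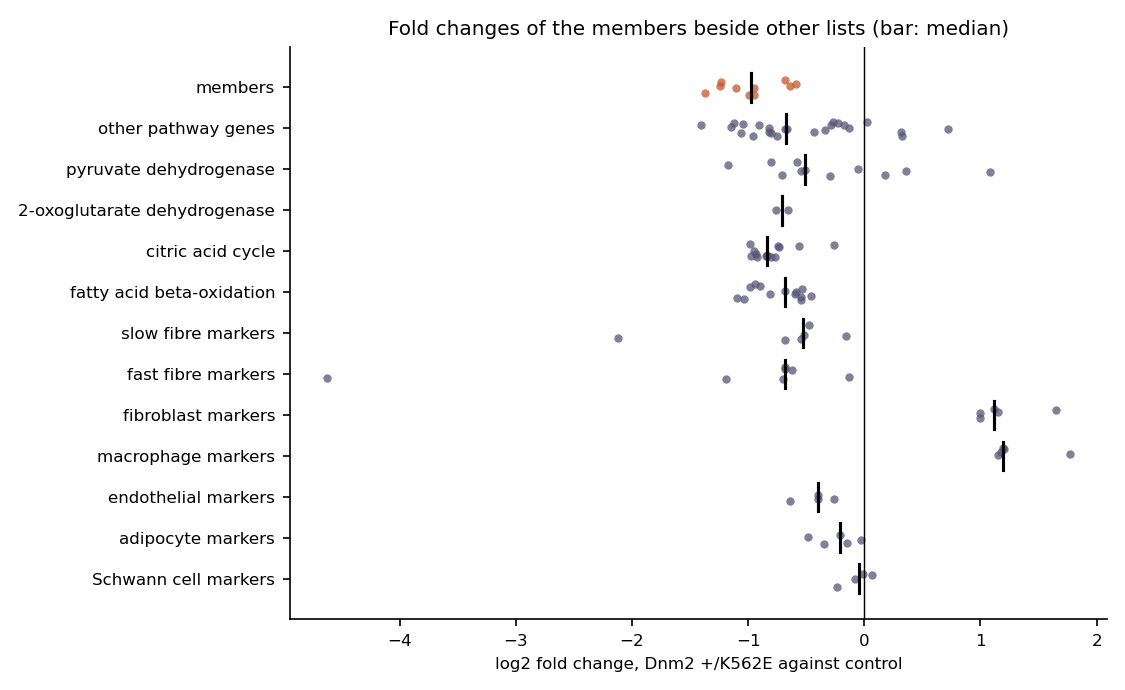
Log2 fold change (x axis) of each gene in lists of metabolic genes and cell type markers, with 1 point per gene and a bar at the median. The 10 genes of branched-chain amino acid breakdown (top row, orange) lie between -1.37 and -0.59, overlapping the ranges of other mitochondrial lists, while fibroblast and macrophage markers lie near or above 1.

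In pieces of whole muscle, fewer cells of a type and less RNA per cell cannot be told apart. Markers of other cell types moved with genotype, and their part in the fall of the 10 genes was not tested. All 5 fibroblast markers rose, with a summed level of 1810 to 2741 normalized CPM in controls and 3886 to 5034 in mutant mice. All 5 macrophage markers rose, with a summed level of 61.8 to 114.3 in controls and 131.3 to 220.2 in mutant mice. Of the fibre markers, 5 of 6 slow-fibre genes and 6 of 7 fast-fibre genes fell. Their sums were 16781 to 19619 in controls and 9799 to 12125 in mutant mice for slow fibres, and 38618 to 39931 and 22667 to 26783 for fast fibres. All 4 endothelial markers fell (2 of 4 with library size alone), with sums of 810.4 to 849.9 and 576.3 to 661.6. None of the 5 adipocyte markers was called by edgeR or DESeq2, and none had an unadjusted p under 0.05 by edgeR (415.8 to 642.8 and 392.2 to 544.9), and 1 of 4 Schwann cell markers fell, a call lost with library size alone (154.5 to 174.0 and 128.9 to 160.0). No marker was at 0 in any mouse. Control 4, which was low in 6 of the 10 genes, was the highest control in every fibroblast and macrophage marker listed. One of them was the macrophage gene Csf1r (49.6 normalized CPM against 26.2 to 29.4 in the other controls). Control 4 was also the highest control in the fast-fibre myosin gene Myh4 (3134 against 163 to 426). In the fast-fibre genes Myh1, Myh2, Tnni2 and Tnnc2 it was the lowest control. In Atp2a1 it was the highest control (7887 against 7461 to 7803). In Tnnt3 control 3 was the lowest (7115, against 7126 in control 4).

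Outside all of these lists, the tested genes whose profile over the 8 mice was most like the mean profile of the 10 genes were Uqcrfs1, Tmem143, Sod2, Chkb and Crat. Likeness was the root mean square difference of log2 CPM, each gene centred on its control mean, and ran from 0.0579 for Uqcrfs1 to 0.0716 for Crat. The 10 genes themselves differed from their own mean profile by 0.0852 (Mccc2) to 0.291 (Ppm1k). Uqcrfs1 encodes the iron-sulphur subunit of respiratory complex III and Sod2 the mitochondrial superoxide dismutase. Crat encodes carnitine acetyltransferase, which exchanges short acyl groups between coenzyme A and carnitine. Their log2 fold changes were -0.98 for Uqcrfs1, -0.92 for Tmem143, -0.91 for Sod2, -0.93 for the choline kinase gene Chkb and -0.98 for Crat.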

How the data were processed

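RNA from soleus muscles of 4 control and 4 Dnm2 +/K562E mice, 4 independent males per genotype, was sequenced, and the authors deposited raw counts per gene and mouse without normalization. Per the submitters' processing notes, reads were trimmed with Trimmomatic 0.33, aligned with STAR 2.5.1b to GRCm38.p5 and counted with featureCounts. Reads overlapping several genes were counted for each, and multi-mapping reads at their primary alignment. The study's methods describe poly A-enriched libraries, whereas the labels name a stranded total RNA kit; whether counting used strand is not given in the sources used here.

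Symbols and positions came from GENCODE M21 (GRCm38), which matched 22647 of 22880 identifiers. In R 4.3.3, edgeR 4.0.16 was used for filterByExpr (minimum count 10, minimum total 15), TMM factors and the quasi-likelihood F-test, with Benjamini-Hochberg adjustment over 14001 genes. Calls used an adjusted p under 0.05 and, where stated, a log2 fold change of 0.58. Log2 CPM used a prior count of 2. Ratios used exact two-sided permutation tests (scipy 1.17.1). No libraries of a genotype agreed within sampling noise, so all 8 were kept. The fitting was tested on simulated data.

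The 10 genes and the other lists were chosen with earlier results of these data known. Named were the 10 genes, Dnm2, Cs, genes of the lists and the 5 genes outside them most like the mean profile. Acadm, Etfb, Myh4 and Csf1r were picked from their lists as examples after their values were seen. As alternatives, each mouse was left out, a replicate block by either mouse number of the labels was added, and the filter was dropped or raised to 10 counts in every mouse. DESeq2 1.42.0 and edgeR's exact test replaced the main test. Scaling used library size alone, median-ratio factors, or no mitochondrially encoded genes. Ratios were repeated with 5 added counts. No protein sequences were used here, and 1 item is not reported here.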

Additional observations from a re-analysis of the deposited data

Results flagged for a closer look

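Among 100 groups of 4 mice (34 pathway genes and 16 ratios, in each genotype), 8 held a mouse far from the other 3 by Dixon's criterion, which chance meets in about 1 of 20 groups. In control 4, Bckdhb was at 19.5 normalized CPM (22.8 to 23.5 in the other controls), the isoleucine enzyme gene Hsd17b10 at 64.0 (71.07 to 71.14) and the mutase gene Mmut at 76.4 (84.6 to 86.1). These 3 low values fell in the same mouse and remained above every mutant mouse. In mutant 1, Klf15 was at 22.6 (33.0 to 34.4 in the other mutant mice) and the low-level Bcat1 at 2.31 (1.23 to 1.35). In mutant 4, the valine enzyme gene Acad8 was at 31.5 (26.5 to 27.3), above the highest control, and Aldh6a1 of the same branch at 80.5 (89.4 to 90.5). The log2 ratio of Dbt to Bckdha was -1.79 in control 1 and between -2.18 and -2.17 in the other controls.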

How the results depend on the processing

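All 10 genes stayed lower with an adjusted p under 0.05 in all 17 alternative settings, with a largest adjusted p of 0.00334 (Ppm1k with a replicate block by title numbers) and a log2 fold change nearest 0 of -0.38 (Bckdk with library size alone). With library size alone, where the median of all genes was 0.22, 7 of the 10 passed both thresholds. With at least 10 counts in every mouse 9 did, and without single mice 9 or 10. Of 408 results for the 24 other genes, 389 kept their direction and side of the threshold, 6 lost and 9 gained a call, and 4 changed sign. The sign changes were in genes not called: Slc25a44 (0.041) and Acad8 (0.081) with library size alone, and Slc3a2, which ran from -0.012 to 0.064 when each mouse was left out. With library size alone Hibch and Mmab lost their call and Slc3a2 gained one (0.24, adjusted p = 0.0170, edgeR). Slc7a8 gained one in 6 settings, the exact test and DESeq2 among them. The replicate block by title numbers left 10 of the 10 genes called and took the call from Hibch (-0.27, adjusted p = 0.0609, edgeR), and a block by description numbers changed no call among the 34 genes. A number links different animals only, and deviations of such mice from their group means correlated over genes by a mean of -0.11 by title and -0.03 by description numbers. The ratio of Dbt to Bckdha, 0.04 higher in mutant mice on the log2 scale, was -0.04 without mutant 1. Tests of ratios with 1 mouse left out were not run.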
